A study of Mus musculus with 4 samples.

Results

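B-lineage cells with few or no transcripts of the surrogate light chain were examined in single-cell RNA of mouse long bone ends. These ends (epiphyses of femur and tibia) hold cartilage and pockets of marrow. A barcode, the tag shared by the molecules of 1 captured cell, was taken as a member when its summed UMIs (unique transcript molecules) of Cd79a and Cd79b reached 5 per 10000 and its summed UMIs of Vpreb1 and Igll1 stayed under 4 per 10000. Members were thus chosen by measured levels of these 4 genes. A barcode also needed 500 genes and no more than 15% of its UMIs from mitochondrial genes. This gave 5472 members among 30952 kept barcodes and 39898 in all. They came from 4 libraries, 286 from the control at day 13, 741 from the mutant at day 13, 2780 from the control at day 19 and 1665 from the mutant at day 19.

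Control mice are labelled wild type. Mutant mice are labelled Sox9fl:fl AcanCreERT2/+, that is, floxed Sox9, the gene of a transcription factor of cartilage cells, with a tamoxifen-dependent Cre recombinase placed under Acan, a gene of cartilage cells. The recombinase is therefore driven in a cell type other than the one described here. The sources used here do not give the tamoxifen schedule, the part of Sox9 that is floxed, the strain, the sex or the number of mice per library. The sample labels were followed, and the design text of the series differs from them, as it names older mice and a further mutant, of Sox8 together with Sox9. By the labels, each genotype was sampled at postnatal days 13 and 19 with 1 library each, so there are no replicates, and strain, litter, dissection and library cannot be told apart from genotype or age. All intervals given are for counting error alone. A p-value here measures an effect against its disagreement between the ages (or genotypes) and a dispersion pooled over genes, and does not measure the spread between mice.

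B cells are made in marrow. A precursor that has joined a heavy chain gene displays it with the surrogate light chain, a stand-in made by Vpreb1 and Igll1, and divides. It then shuts off the surrogate chain, stops dividing, reopens the recombinase genes Rag1 and Rag2 and joins a kappa or a lambda light chain gene. A cell with a finished receptor leaves the marrow as an immature B cell and gains genes of mature cells such as Ms4a1 (CD20), Fcer2a (CD23) and Ighd. Throughout, Cd79a and Cd79b encode the signalling pair of the receptor, and Vpreb3 encodes a chaperone-like relative of the surrogate chain.

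Upstream sequences of 3 genes are printed: Cd79a, which marks the B lineage and entered the rule, Vpreb3, a B-lineage gene that did not enter it and was high in members and with surrogate chain alike, and Igll1, which entered the rule and divides the members from the earlier stage. They were taken from RefSeq (GRCm38.p6), 5′ to 3′ on the gene's own strand and limited to bases outside exons of the GENCODE annotation. Capitals mark matches, searched on both strands, to CAGGTG (an E-box of the kind E proteins bind), CCCNNGGG (a core of the sites of EBF1) and ATGCAAAT (the octamer). The matches overlapped no other match. Of the named genes of the surrogate chain and its partners, Cd79b had no entry in the table.

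Cd79a, chr7:24897247-24897380, plus strand, 134 bases: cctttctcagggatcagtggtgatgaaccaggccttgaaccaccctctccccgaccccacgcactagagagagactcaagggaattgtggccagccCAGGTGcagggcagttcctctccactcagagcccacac
Vpreb3, chr10:75948050-75948299, plus strand, 250 bases: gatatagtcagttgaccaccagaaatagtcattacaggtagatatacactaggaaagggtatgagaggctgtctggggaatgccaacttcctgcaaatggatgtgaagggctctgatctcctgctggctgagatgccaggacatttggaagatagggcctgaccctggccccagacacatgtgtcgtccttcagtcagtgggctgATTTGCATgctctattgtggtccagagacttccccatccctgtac
Igll1, chr16:16863986-16864235, minus strand, 250 bases: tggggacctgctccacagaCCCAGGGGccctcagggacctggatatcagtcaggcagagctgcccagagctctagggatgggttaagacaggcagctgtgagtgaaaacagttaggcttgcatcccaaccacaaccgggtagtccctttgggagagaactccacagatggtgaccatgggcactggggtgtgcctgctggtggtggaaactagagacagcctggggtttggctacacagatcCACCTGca

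The Vpreb3 stretch held 1 octamer, read here from the opposite strand, 45 to 38 bases before the RefSeq start. Of 32851 promoter windows of 250 bases, 1.60% held an octamer. The Igll1 stretch held an EBF1 core and an E-box, which 11.8% and 17.2% of such windows held. The Cd79a stretch held 1 E-box, found in 9.75% of windows cut to 134 bases. A match of letters is a description and no evidence that a factor binds there.

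The libraries held 70507107 to 76080803 UMIs, and the median member held 1778.5 UMIs (control) and 2121 UMIs (mutant) at day 13, and 2300 and 1892 UMIs at day 19. Sox9, the targeted gene, stood at 320 and 232 CPM (UMIs scaled to a total of 1000000) in control barcodes outside the B rule at days 13 and 19 and at 158 and 118 CPM in mutant ones. The reads come from the 3′ end, and since the floxed part is not given, a transcript that lacks it may still be counted. Between 19 and 44 barcode sequences were shared by any pair of libraries, and at most 2 of them were members in both. The control library at day 13 stood apart from the other 3 in its make-up: 4094 of its kept barcodes gave 5% or more of their UMIs to chondrocyte markers, against 768 to 924 in the others.

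The members carried the B-cell genes the rule did not use. Vpreb3 was at 1143 and 2194 CPM in control members at days 13 and 19 and at 1574 and 1648 CPM in mutant members, against 2.05 to 19.3 CPM outside the B rule. After each barcode was thinned to 1000 UMIs, 62.7% to 81.8% of members held a Vpreb3 UMI, and 0% to 1.87% of neutrophil barcodes did (75.2% to 93.2% of members before thinning). Ighm, the heavy chain of IgM, was at 3044 and 2912 CPM in controls and 3043 and 3662 CPM in mutants.

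The label was set beside marker lists, summed as a share of member UMIs. The 9 B-cell markers, which include Cd79a and Cd79b, made up 1.25% to 1.45% in the 4 libraries, against 0.00752% to 0.0215% outside the rule. The pro-B and large pre-B list, which includes Vpreb1 and Igll1, made up 0.0193% to 0.0359%, against 0.247% to 0.306% with surrogate chain. Both lists hold genes that chose the members, so these differences were in part set by the rule and are no check of the label. T and NK markers summed to at most 0.00209%, basophil and mast cell markers to at most 0.000143%, megakaryocyte and platelet markers to at most 0.00512% and plasmacytoid dendritic cell markers to at most 0.00343%. All 4 lists were thus at very low levels. In controls the plasmacytoid dendritic list was higher in members than outside the rule (0.00343% against 0.000536% at day 13, 0.00322% against 0.00279% at day 19). In mutants it was lower in members (0.000992% against 0.00207% at day 13, 0.00201% against 0.00309% at day 19). Myeloid progenitor markers reached at most 0.00759% and monocyte and macrophage markers 0.0389%, under their levels outside the rule. Endothelial markers were higher in members (0.00761% to 0.00871%) than outside (0.00225% to 0.00498%), at a very low level in both. In members this list was mostly Pecam1. In the divisions of members given below, Pecam1 was at 46.8 to 117 CPM and Cdh5, Emcn and Kdr were at 0 to 11.1 CPM. Jchain, which plasma cells use to join antibody molecules, had 1 and 20 UMIs in control members and 0 and 1 in mutant members. Mzb1, also counted among plasma cell markers, is used by precursors too and stood higher in barcodes with surrogate chain (754 to 1109 CPM) than in members (344 to 497 CPM).

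Transcripts of cartilage, erythroid cells and neutrophils were present in members, at a lower share than in barcodes outside the rule in each library. Chondrocyte markers made up 2.30% and 0.358% of member UMIs in the controls at days 13 and 19, against 0.630% and 0.441% in the mutants. Erythroid markers made up 0.907% and 7.36% in control members, with 0.658% and 2.97% in mutant members. Neutrophil markers made up 0.257% and 0.433% in control members, with 0.243% and 0.774% in mutant members. No marker of these lists was at 0 UMIs in members of any library. These lists therefore differed between genotypes and ages inside the members, and their part in the results below was not tested.

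The values that chose the members were as follows, with no test. Cd79a was at 1339 and 1400 CPM in control members at days 13 and 19 and at 1043 and 1063 CPM in mutant members, and Cd79b was at 1123 and 1369 CPM and at 1107 and 1004 CPM. The sum of both was just inside the threshold at 5.01 to 5.06 per 10000 and just outside at 4.97 to 4.99. The sum of Vpreb1 and Igll1 was just inside at 3.81 to 3.998 and just outside at 4 to 4.04. Of all members, 259 rested on a single UMI of the Cd79 genes. No UMI of Vpreb1 or Igll1 was seen in 4996, and 310 had 1. Barcodes that passed the Cd79 threshold but had surrogate chain at 4 or more per 10000 were far fewer, 81 and 656 in controls and 247 and 446 in mutants. They were also deeper, with medians of 4645 to 6409 UMIs, so a shallow barcode at the earlier stage could be a member by missing these transcripts. Members were 75.0% to 80.9% of all B barcodes in the 4 libraries.

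Members were 4.51% (exact 95% interval 4.01 to 5.05) of kept barcodes in the control at day 13 and 38.4% (37.3 to 39.5) at day 19. In the mutant they were 9.97% (9.30 to 10.7) at day 13 and 16.7% (16.02 to 17.5) at day 19. The mutant share was thus 2.21 times the control share at day 13 and 0.436 times at day 19, in opposite directions. With 1 library a group there is no test. The share depends on how many other cells each library held. Beside the chondrocyte barcodes given above, neutrophil barcodes (200 or more S100a8 and S100a9 UMIs per 10000) numbered 279 and 537 in controls and 512 and 1576 in mutants. Among barcodes with 1000 or more genes the ratio of shares was 3.33 at day 13 and 0.334 at day 19.

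**Figure D1:**
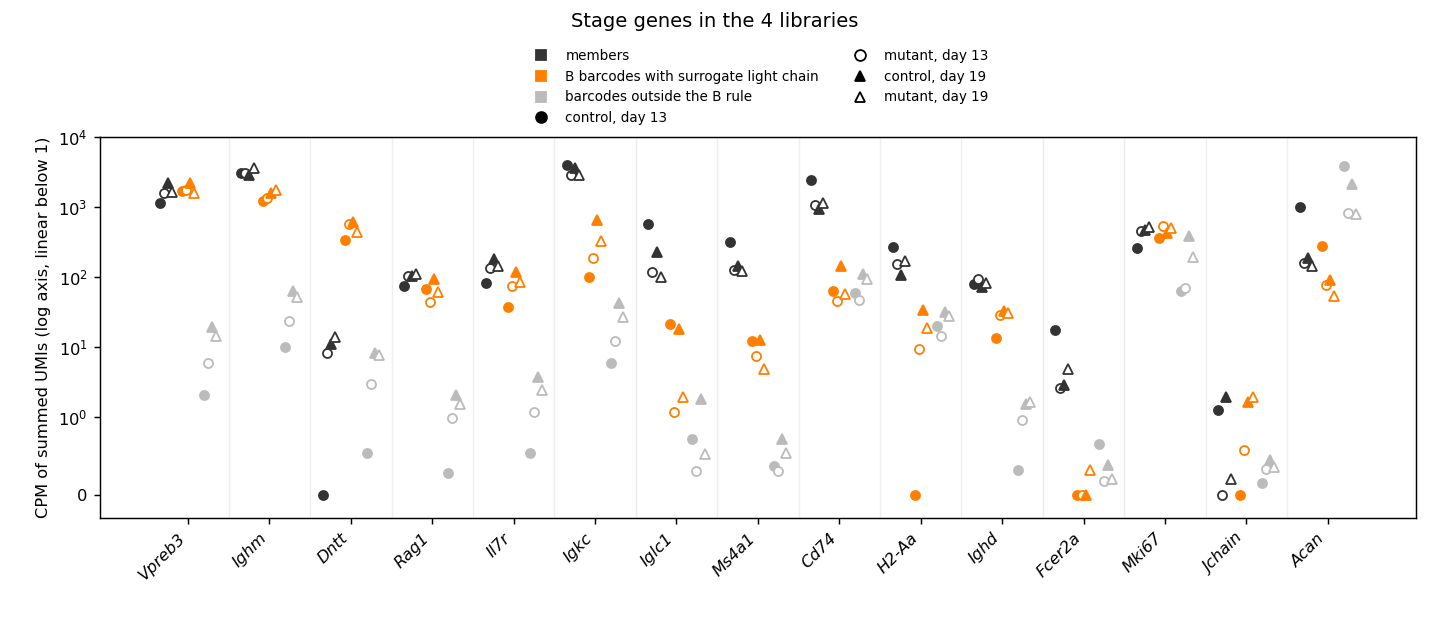
CPM of summed UMIs (log axis, linear below 1) for 15 genes in members, in B barcodes with surrogate light chain and in barcodes outside the B rule; each point is 1 library, filled for control, open for mutant, round for day 13 and a triangle for day 19. Dntt is low in members (0 to 13.9 CPM) and high with surrogate chain (342 to 609 CPM), while Ms4a1 and Cd74 are higher in members in all 4 libraries.

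The next genes place the members on the path described above. They are compared with B barcodes with surrogate chain as a description, since the rule itself divides both. Dntt, the enzyme that adds bases at heavy chain joints in early precursors, had 0 UMIs in control members at day 13 and was at 10.9 CPM at day 19, and it was at 8.20 and 13.9 CPM in mutant members. With surrogate chain it was at 342 to 609 CPM, and the groups of 4 did not overlap. Vpreb2, a close copy of Vpreb1 that the rule did not use, was at 0 to 5.18 CPM in members and at 126 to 253 CPM with surrogate chain. Because the copies are alike, reads may be divided between them.

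Rag1, which cuts the gene segments to be joined, was at 74.9 and 104 CPM in control members and at 104 and 109 CPM in mutant members. With surrogate chain it was at 67.7 and 94.5 CPM in controls and at 44.1 and 60.2 CPM in mutants, lower than in members in each library. Rag2 was low, at 12.7 and 12.4 CPM in control members and at 2.16 and 8.29 CPM in mutant members. With surrogate chain Rag2 was at 22.6 and 16.1 CPM in controls and at 6.38 and 9.66 CPM in mutants. Unlike Rag1, it was thus lower in members in each library. Il7r, the receptor chain through which precursors receive interleukin 7, was at 81.2 and 184 CPM in control members and at 136 and 143 CPM in mutant members. With surrogate chain Il7r was at 37.6 and 119 CPM in controls and at 73.7 and 85.7 CPM in mutants. Il7r was thus higher in members in each library, although it is on the pro-B and large pre-B list. Rag1 marked a part of the members, as a UMI of it was seen in 15.4% to 26.5% of members before thinning and in 12.2% to 14.3% at 1000 UMIs, against 0% to 0.187% of neutrophil barcodes.

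Ms4a1, the B-cell surface protein CD20, was at 318 and 145 CPM in control members and at 126 and 122 CPM in mutant members, and at 4.83 to 12.8 CPM with surrogate chain. Cd74, the invariant chain that carries MHC class II molecules, was at 2432 and 954 CPM in control members and at 1089 and 1149 CPM in mutant members, and at 45.8 to 144 CPM with surrogate chain. H2-Aa, a class II chain, was at 265 and 107 CPM in control members and at 154 and 172 CPM in mutant members. For all 3 genes the control library at day 13 was the highest. Ighd, the IgD heavy chain, was at 73.0 to 93.6 CPM in members with little spread. Genes of fully mature follicular cells were low. Fcer2a had 14 and 30 UMIs in control members (17.8 and 2.86 CPM) and 6 and 23 in mutant members (2.59 and 4.77 CPM). Its level was thus highest in the control at day 13. Cr2, the complement receptor CD21, had 1 to 9 UMIs in any library (0.431 to 3.81 CPM).

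Igkc, the kappa constant gene, was at 3959 and 3603 CPM in control members at days 13 and 19 and at 2921 and 2902 CPM in mutant members. It was at 99.3 and 652 CPM in control barcodes with surrogate chain and at 189 and 326 CPM in mutant ones. After thinning, 79.6% to 84.8% of members held an Igkc UMI, 7.41% to 33.1% of barcodes with surrogate chain and 0% to 3.93% of neutrophil barcodes (86.0% to 93.8% of members before thinning). No light chain UMI of either kind was found in 2.77% to 7.15% of members.

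The lambda constant genes Iglc1, Iglc2 and Iglc3 lie together on chromosome 16. Iglc2 and Iglc3 are near-identical, so reads may be divided between them, and the sum over the lambda genes is given. Summed, they were at 1298 CPM in control members at day 13, 303 CPM in mutant members at day 13, 548 CPM in control members at day 19 and 244 CPM in mutant members at day 19. Both controls were above both mutants, and the control at day 13 was highest. The log2 ratio of mutant over control was -2.10 (95% counting interval -2.24 to -1.96) at day 13 and -1.17 (-1.26 to -1.08) at day 19. For Igkc it was -0.44 (-0.50 to -0.38) and -0.31 (-0.34 to -0.28). Outside the B rule the lambda genes were at 1.16 to 5.83 CPM.

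The same was seen barcode by barcode. Lambda UMIs outnumbered kappa UMIs in 15.4% (exact 95% interval 11.4 to 20.1) of control members at day 13 and in 8.38% (7.38 to 9.47) at day 19. In mutant members the shares were 3.91% (2.64 to 5.57) and 2.58% (1.88 to 3.46). Among members with 10 or more light chain UMIs (166 and 1705 in controls, 302 and 568 in mutants), at least 90% of these UMIs were lambda in 7.23% and 3.23% of control members and in 1.99% and 0.352% of mutant members. Barcodes with a mixture, where neither chain reached 90%, were 45.2% in the control at day 13 and 21.7% to 24.3% in the other 3 libraries. The highest 5% of doublet scores held 4.29% to 6.50% of the mixed barcodes and 4.22% to 5.40% of all those with 10 light chain UMIs. Free transcripts can also give a lambda UMI to a kappa cell, and the part of free transcripts in the mixture was not tested.

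**Figure D2:**
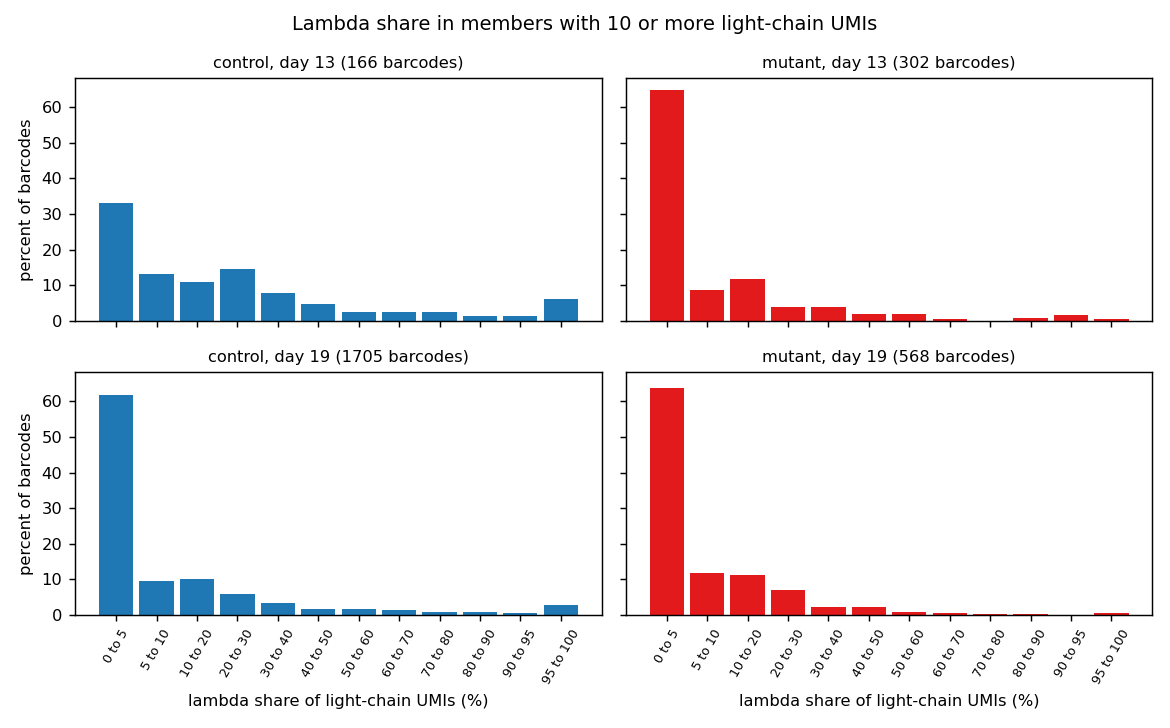
Percent of members (y axis) by the lambda share of their light chain UMIs (x axis, bins of 5 points at both ends and 10 between) in the 4 libraries, for members with 10 or more light chain UMIs. The lowest bin holds 33.1% of barcodes in the control at day 13 and 61.7% or more in each of the other 3 libraries.

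Transcripts of light chain variable genes were few. The reads come from the far end of the transcript, and the part of this in the low counts was not tested. The 160 Igkv genes gave 45 and 1417 UMIs in control members and 270 and 582 in mutant members. Igkv1-35 took 40% and 53.2% of Igkv UMIs in control members and 51.9% and 43.0% in mutant members, and Igkv1-135 took 8.89% and 18.4% in controls and 24.4% and 26.1% in mutants. Igkv1-35 was found in 519 control members at day 19, or 18.7%. Outside the B rule all Igkv genes together had 5 to 58 UMIs per library. Which transcripts of these genes the reads came from cannot be told from gene counts.

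Members were then divided by division and by Ms4a1, at limits chosen after the data had been seen. Barcodes with 20 or more UMIs of 21 cell-cycle genes per 10000 were called cycling, and the rest were divided by whether they held an Ms4a1 UMI. These are ranges of a measure and not cell types, and 35 to 294 members per library lay between 15 and 25 per 10000. Cycling members were 19.9% (15.5 to 25.04) and 43.2% (41.3 to 45.03) of the controls at days 13 and 19, and 40.1% (36.5 to 43.7) and 44.0% (41.6 to 46.4) of the mutants. With surrogate chain the share was 63.0% to 74.1%. At a common depth of 1000 UMIs, 28.7% and 51.6% of control members and 50.2% and 53.7% of mutant members held 2 or more cell-cycle UMIs. The control at day 13 was therefore low by both measures. Mki67, a protein of dividing cells, was at 260 CPM there and at 453 to 518 CPM in the other 3 libraries.

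Resting members with Ms4a1 were 34.3% and 15.6% of control members (days 13 and 19) and 11.2% and 11.3% of mutant members. Rag1 was highest in resting members without Ms4a1, at 178 and 242 CPM in controls and at 193 and 210 CPM in mutants. In resting members with Ms4a1 it was at 16.3 and 65.1 CPM in controls and at 65.2 and 21.6 CPM in mutants, and in cycling members at 28.8 to 73.7 CPM. The range without Ms4a1 did not overlap that of either other division. In single barcodes thinned to 1000 UMIs, those with a Rag1 or Rag2 UMI held Ms4a1 in 2.02% to 5.41% of cases, and those without in 11.3% to 32.6%.

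Light chain transcripts differed between the divisions too. Igkc was at 1902 to 2193 CPM in cycling members, at 4066 to 5391 CPM in resting members without Ms4a1 and at 4568 to 7665 CPM in those with it, rising over the 3 divisions within every library. Iglc1 ran from 59.4 to 151 CPM in cycling members and from 386 to 993 CPM in resting members with Ms4a1. Within the latter, both controls (993 and 925 CPM) stayed above both mutants (418 and 386 CPM). The same held in resting members without Ms4a1 (642 and 338 CPM against 84.2 and 104 CPM). In cycling members Iglc1 was at 151 and 70.5 CPM in controls and at 95.7 and 59.4 CPM in mutants. There the mutant at day 13 was above the control at day 19. Cd74 was at 508 to 1001 CPM in cycling members and at 2786 to 4477 CPM in resting members with Ms4a1, the higher range in every library. Il7r went the other way, from 119 to 199 CPM in cycling members to 16.3 to 76.0 CPM in resting members with Ms4a1.

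**Figure D3:**
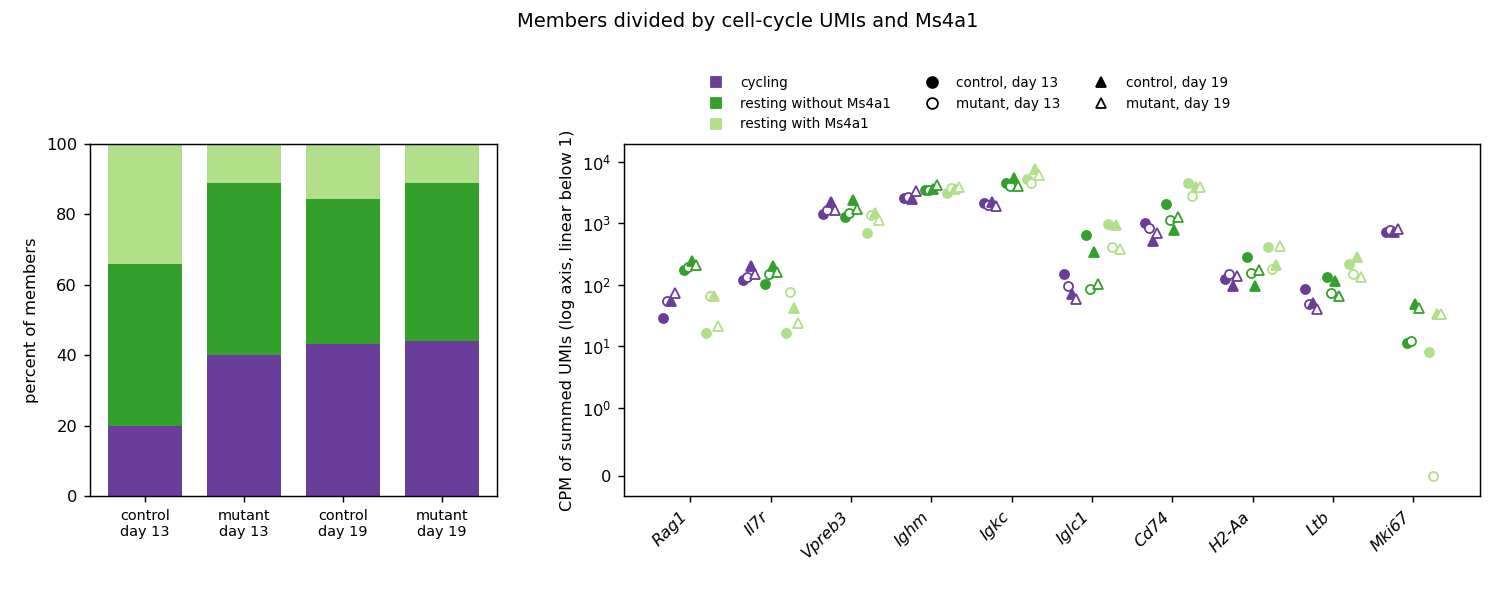
Left, percent of members in each library that were cycling, resting without an Ms4a1 UMI and resting with one; right, CPM (log axis, linear below 1) of 10 genes in each division, 1 point per library. Rag1 is highest in resting members without Ms4a1, and Igkc and Cd74 are highest in resting members with it.

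Genotype was tested in 1 fit over all 4 libraries, on UMIs summed over members, with age as a second factor (edgeR's quasi-likelihood test, Benjamini-Hochberg adjustment over 10775 genes, called at an adjusted p of 0.05 or less). The fit called 166 genes, 1.54% of those tested, with 114 higher (1.06%) and 52 lower (0.483%) in mutant members. An unadjusted p under 0.05 was found for 712. Most of the calls were of genes that other cells of the same library held at a higher level. In 94 of the 114 higher and 26 of the 52 lower genes, the members' level fell under that of barcodes outside the B rule in at least 1 library of the genotype where the gene was higher. They included 5 of 6 osteoblast and fibroblast markers (Col1a1, Col1a2, Bglap, Ibsp and Postn), the macrophage genes C1qa, C1qb and C1qc, all higher, and 4 haemoglobin genes and 4 of 7 chondrocyte markers (Acan, Col9a2, Matn1 and Matn3), all lower. A further chondrocyte marker, Comp, was called higher, as were the neutrophil gene Ltf and the platelet genes Pf4 and Ppbp. Osteoblast and fibroblast markers made up 0.386% and 0.0696% of UMIs in control members and 0.629% and 0.410% in mutant members. Their part in the calls was not tested.

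Genes named below were called, moved the same way at both ages, reached 50 CPM at both ages in the genotype where they were higher, and were no lower in members than in other barcodes where they were higher. The largest fall was that of Apobec3, a cytidine deaminase that restricts retroviruses (chr15:79891659-79915906, GRCm38, plus strand). It was at 197 CPM in control members at day 13, 12.5 CPM in mutant members at day 13, 252 CPM in control members at day 19 and 9.95 CPM in mutant members at day 19. Controls and mutants were far apart at both ages, and the edgeR log2 fold change was -4.42 (SE 0.35, adjusted p = 2.5e-10). Barcodes with surrogate chain showed the same direction, at 244 and 251 CPM in controls and 19.7 and 18.7 CPM in mutants. Apobec3 was also lower in mutant barcodes outside the B rule, at 6.73 and 35.2 CPM in controls and 4.15 and 4.14 CPM in mutants. The annotation places AC113595.1 on the same strand and Cbx7 on the opposite strand over Apobec3, and both were called lower too. Cbx7 was at 10.2 and 8.59 CPM in control members and at 0.431 and 1.45 CPM in mutant members, and reads of the 3 genes may not be told apart. Among thinned barcodes, 21.1% and 19.5% of control members held an Apobec3 UMI, 0.955% and 0.969% of mutant members and 0% to 1.83% of neutrophil barcodes (31.8% and 44.5%, 3.51% and 2.82% of members before thinning).

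Snhg12, a host gene of small nucleolar RNAs (chr4:132308623-132311024), was at 175 and 169 CPM in control members and at 22.4 and 32.3 CPM in mutant members. The groups did not overlap (log2 fold change -2.73, SE 0.31, edgeR adjusted p = 6.3e-07). It was also lower in mutant barcodes outside the B rule, at 72.5 and 60.3 CPM in controls and 31.6 and 26.9 CPM in mutants. Hvcn1, a proton channel that B cells use with receptor signalling (chr5:122206804-122242297), was at 77.4 and 63.3 CPM in control members and at 22.9 and 21.6 CPM in mutant members (log2 fold change -1.72, SE 0.30, edgeR adjusted p = 0.00063). Outside the rule it was at 1.70 to 6.92 CPM, below the members in every library. In the controls, naming required that it be no higher outside the rule. Its locus overlaps Tctn1 on the opposite strand.

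Tomm22, part of the mitochondrial import pore, lies near Apobec3 on chromosome 15. It was at 131 and 183 CPM in control members and at 82.4 and 67.2 CPM in mutant members (log2 fold change -1.16, SE 0.31, edgeR adjusted p = 0.045). Tomm22 was also lower in mutant barcodes outside the B rule, at 76.7 and 95.7 CPM in controls and 40.7 and 41.1 CPM in mutants. With surrogate chain it was at 242 and 233 CPM in controls and at 106 and 93.7 CPM in mutants. Ablim1, an actin-binding protein gene, was at 71.1 and 125 CPM in controls and at 45.3 and 44.4 CPM in mutants (log2 fold change -1.20, SE 0.31, edgeR adjusted p = 0.037). Both were close to the threshold. The lambda constant genes fell too: Iglc1 with a log2 fold change of -1.82 (SE 0.31, edgeR adjusted p = 0.00048), Iglc2 with -1.70 (SE 0.31, 0.00094) and Iglc3 with -1.49 (SE 0.30, 0.0027). Iglc2 and Iglc3 may share reads and are not separate results. Among barcodes with 1000 or more genes the fold changes of the 3 were smaller (-0.97, -1.04 and -1.23 on the log2 scale) and none of the 3 was called.

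Of the genes that rose, Lepr, the leptin receptor (chr4:101717404-101815352), was at 16.5 CPM in control members at day 13, 149 CPM in mutant members at day 13, 9.06 CPM in control members at day 19 and 195 CPM in mutant members at day 19. The log2 fold change was 3.88 (SE 0.36, edgeR adjusted p = 8.3e-09). With surrogate chain Lepr was at 13.5 and 15.7 CPM in controls and at 30.2 and 41.6 CPM in mutants, and outside the rule at 9.90 and 12.0 CPM and at 20.7 and 49.7 CPM. In both mutant libraries members were thus above barcodes with surrogate chain. That members were no lower than barcodes outside the rule there was a condition of naming. Epha2, a receptor of ephrin ligands, also on chromosome 4, was at 39.3 and 65.2 CPM in control members and at 119 and 137 CPM in mutant members (log2 fold change 1.21, SE 0.30, edgeR adjusted p = 0.029). Spata7, a gene known from photoreceptor cilia, was at 8.88 and 53.0 CPM in controls and at 97.1 and 94.4 CPM in mutants (log2 fold change 1.58, SE 0.38, edgeR adjusted p = 0.022). The rise of Spata7 was 10.9-fold at day 13 and 1.78-fold at day 19, and its level was low in the control at day 13 outside the B rule as well (8.07 CPM, against 62.2 to 85.4 CPM).

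**Figure D4:**
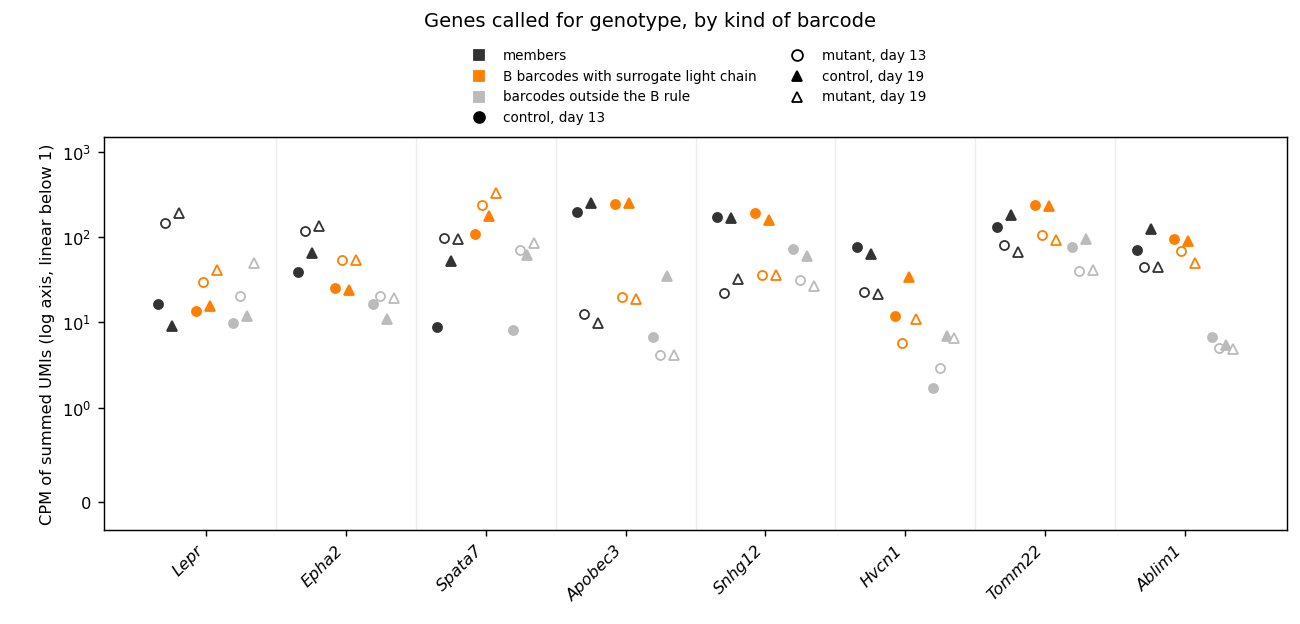
CPM (log axis, linear below 1) of 8 genes called for genotype in members, in B barcodes with surrogate light chain and in barcodes outside the B rule, 1 point per library, filled for control and open for mutant. Apobec3 and Snhg12 are lower in both mutant libraries in members and with surrogate chain, and Lepr in members stands at 149 and 195 CPM in the mutants against 16.5 and 9.06 CPM in the controls.

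These calls rested on all 4 libraries. With genotype as the only factor no gene was called, and Apobec3 then had an edgeR adjusted p of 0.099. Without the mutant library at day 13, 0 genes were called, and the log2 fold change was -4.56 for Apobec3 (edgeR adjusted p = 0.10) and 4.0 for Lepr (0.064). Without the mutant library at day 19, 19 genes were called, and of the 11 named genes only Apobec3, Lepr and Snhg12 were among them. All 11 named genes were called without the control at day 13, where 1076 genes were called in all, and 10 without the control at day 19, of 444. All 11 kept their direction in each of these fits. Without the mutant at day 19 or at day 13 the lambda genes were not called, with log2 fold changes of -2.01 to -1.34.

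In the gene lists of the B-cell path, members of 1 of 13 lists were called for genotype. Of the receptor and co-receptor list, 3 of 12 tested genes fell, the lambda genes just given, and none rose. The median log2 ratio of mutant over control on this list was -0.36 at day 13 and -0.20 at day 19, beside 0.00 and 0.10 over all 8532 genes measured at 10 CPM or more. Igkc did not pass the test (log2 fold change -0.45, SE 0.23, edgeR adjusted p = 0.82). No gene passed in the lists of receptor signalling (16 tested), B-lineage transcription factors (21), pro-B and pre-B genes (12), recombination and end joining (11) or survival and cytokine receptors (12). None passed in the lists of homing and adhesion (11), interferon-stimulated genes (9), immediate early and heat shock genes (16) or plasma cell genes (3) either. In the signalling list, Pik3cd, a catalytic subunit of phosphoinositide 3-kinase in white blood cells, was at 32.99 and 39.9 CPM in controls and at 80.2 and 85.6 CPM in mutants, and Syk, a kinase next to the receptor, was at 236 and 285 CPM and at 349 and 346 CPM. For both the mutants were above the controls at each age. Plcg2, a phospholipase that the receptor activates, was at 69.8 and 52.8 CPM in controls and at 74.6 and 83.4 CPM in mutants. Bank1, an adaptor of the receptor, was at 66.0 CPM in the control at day 13 and at 22.8 to 24.3 CPM in the other 3 libraries.

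The named transcription factors went both ways. Klf2, a factor of resting lymphocytes, was at 338 and 265 CPM in controls and at 162 and 231 CPM in mutants. Mef2c was at 327 and 250 CPM in controls and at 198 and 225 CPM in mutants. Irf4, a factor of light chain gene opening, was at 241 and 297 CPM in controls and at 386 and 366 CPM in mutants. Ikzf1, the gene of Ikaros, was at 170 and 193 CPM in controls and at 235 and 258 CPM in mutants. Klf2 and Mef2c were thus lower and Irf4 and Ikzf1 higher in mutants at both ages, and none of the 4 passed the test.

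For the last 3 lists the ratio of mutant over control differed between the ages. Of 11 MHC class II genes 0 were higher in the mutant at day 13 (median log2 ratio -1.16) and 9 at day 19 (0.33). H2-Eb1 was at 302 and 108 CPM in control members and at 132 and 152 CPM in mutant members, which put the mutant lower at day 13 and higher at day 19. Of 19 measured genes of transitional and mature B cells, 2 were higher in the mutant at day 13 (median -1.10) and 11 at day 19 (0.09). Ltb, a lymphotoxin chain, was at 142 and 93.2 CPM in controls and at 65.6 and 55.2 CPM in mutants. Ms4a1 had log2 ratios of -1.34 (-1.59 to -1.09) and -0.24 (-0.38 to -0.11) and did not pass the test (edgeR adjusted p = 0.29). Of 21 cell-cycle genes 20 were higher in the mutant at day 13 (median 0.59) and 3 at day 19 (-0.31). The additive fit cannot test such a difference between ages, and none of the genes of these 3 lists was called. In each list the library that stood apart was the control at day 13, with 286 members.

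**Figure D5:**
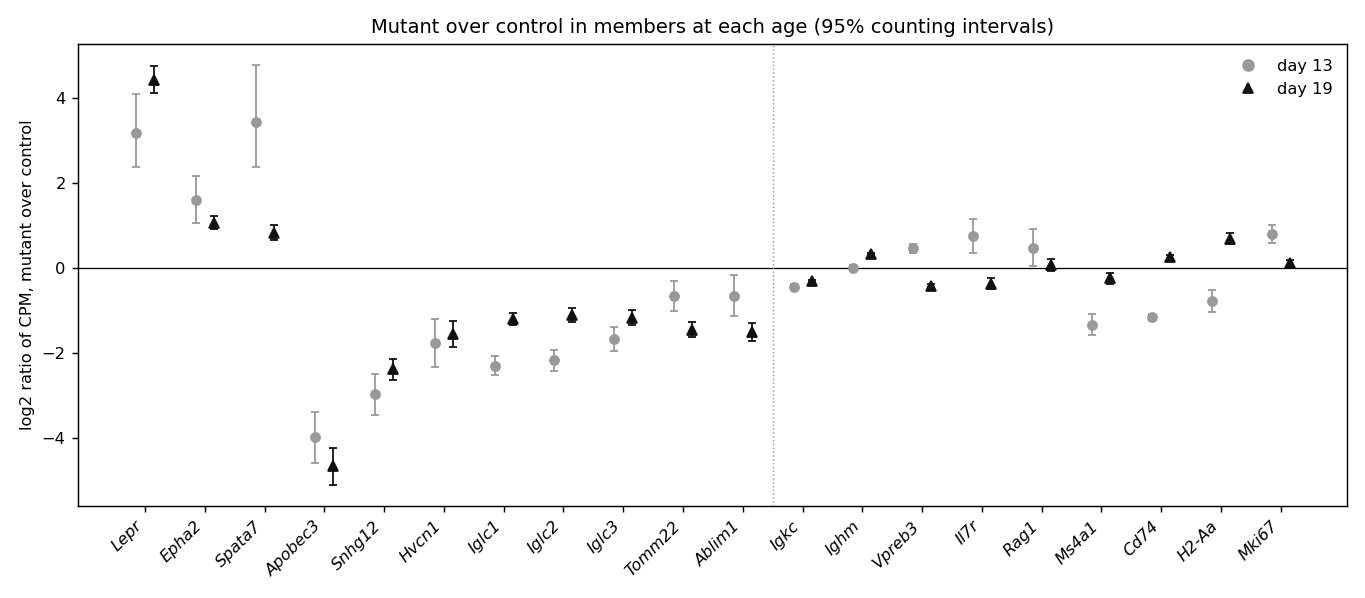
Log2 ratio of CPM in members, mutant over control, at day 13 (circles) and day 19 (triangles) with 95% counting intervals; the genes left of the dotted line were called for genotype. Those 11 have the same sign at both ages, which the naming rule required. Of genes not held to this, Cd74 goes from -1.16 to 0.27, H2-Aa from -0.78 to 0.69 and Il7r from 0.74 to -0.37.

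Age was read from the same fit. It called 110 genes (1.02%), 50 higher at day 19 (0.464%) and 60 lower (0.557%), and 928 had an unadjusted p under 0.05. Most were genes held at a higher level by other cells. In 44 of the 50 higher and 59 of the 60 lower genes the members' level fell under that of other barcodes in at least 1 library of the age where the gene was higher. All 7 erythroid markers and 5 of 8 neutrophil markers were higher at day 19, and 4 of 7 chondrocyte and 3 of 6 osteoblast and fibroblast markers were lower. When barcodes with 3% or more of their UMIs in such marker lists were left out, 27 genes were called for age. No gene of the 13 lists was called for age.

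The genes named by the rule were Hist1h4i, Hist1h2bm and Bpgm, all higher at day 19, and none lower. Hist1h4i, a histone gene, was at 36.8 and 32.8 CPM at day 13 in control and mutant members and at 83.4 and 68.0 CPM at day 19 (log2 fold change 1.21, SE 0.30, edgeR adjusted p = 0.038). Hist1h2bm, another histone gene, went from 21.6 and 28.5 CPM to 79.5 and 51.0 CPM (log2 fold change 1.38, SE 0.33, edgeR adjusted p = 0.028). Both were also higher at day 19 outside the B rule, where Hist1h2bm went from 4.14 and 2.77 CPM to 59.0 and 17.6 CPM. Bpgm, which makes a regulator of oxygen release in red cells, went from 21.6 and 46.6 CPM to 173 and 65.5 CPM (log2 fold change 1.65, SE 0.40, edgeR adjusted p = 0.029), beside 163 and 53.9 CPM outside the rule at day 19. All 3 were called without the mutant at day 19, and none without any other 1 of the libraries. None was called with barcodes of other markers left out, where the log2 fold change of Bpgm was 0.60 and those of Hist1h4i and Hist1h2bm were 1.01 and 1.21.

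None of the genes of the 13 lists passed the test for age. For some, the ratio between the ages was wider in controls than in mutants. Vpreb3 had a log2 ratio of day 19 over day 13 of 0.94 (0.84 to 1.04) in controls and 0.07 (0.01 to 0.12) in mutants. For Cd74 it was -1.35 (-1.42 to -1.28) in controls and 0.08 (0.01 to 0.15) in mutants, and for Il7r 1.18 (0.82 to 1.56) and 0.07 (-0.12 to 0.27). Ighm went the other way, with -0.06 (-0.12 to -0.0034) in controls and 0.27 (0.23 to 0.31) in mutants. The median over the class II list was -1.35 in controls and 0.12 in mutants, and over the cell-cycle list 1.07 and 0.10, beside -0.14 and -0.04 over all measured genes. These ratios share the 4 libraries with those of genotype and are no separate evidence, and the difference between genotypes was not tested.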

How the data were processed

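Epiphyses were digested with Liberase, captured with Chromium version 3 chemistry and read on a NovaSeq (per the labels' protocols). Unscaled UMI counts for every gene and barcode were deposited, which the authors made with Cell Ranger (3.1.0 per the file headers) on mm10, per the submitters' processing notes, which also name Seurat 3 with no role. Of 31053 features 30934 matched GENCODE M21 (GRCm38), the source of coordinates, counted from 1. The members and gene lists were chosen with earlier results of these data known.

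Members were taken at the limits given above, and doublets were kept. UMI counts were summed per library over members, 788148 to 10482100 UMIs, and tested with edgeR 4.0.16 (R 4.3.3, limma 3.58.1, TMM scaling, filterByExpr, genotype plus age, 1 residual degree of freedom, common dispersion 0.0553, prior degrees of freedom 30.3). The procedure was checked on simulated data. CPM are summed UMIs scaled to 1000000, weight deep barcodes more, and are not divided by gene length, as 3′ UMIs do not grow with it. Ratios at 1 age are of CPM with exact conditional 95% intervals. A count of 0 allows up to 3 counts. Shares have Clopper-Pearson intervals. Depth comparisons used barcodes thinned to 1000 UMIs, which left out 4 to 14 members per library.

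Named by rule were a fixed set of B-lineage genes (2 of them are not reported here), up to 10 genes each way per factor as described, and up to 4 per list with 50 CPM or more. Mitochondrial, ribosomal, haemoglobin, sex-linked, unnamed and variable-region genes were left out of ranking. Vpreb2, the Igkv genes and list members given only as passing were chosen after their values were seen. Alternatives were RLE scaling, DESeq2 1.42.0, no filter, 1 factor alone, 1000 genes, 10% mitochondrial UMIs, a Cd79 sum of 10, 2 Cd79 UMIs, 0 surrogate chain UMIs, and no barcode with 3% or more of its UMIs in another cell type's markers. Added after seeing the data were leaving out each library and leaving out the highest 5% of doublet scores (scanpy 1.11.5, Python 3.11.15).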

Additional observations from a re-analysis of the deposited data

Results flagged for a closer look

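The ratio of mutant over control in members had opposite signs at days 13 and 19, with both counting intervals clear of 0, for 11 named genes. For Cd74 the log2 ratio was -1.16 (day 13) and 0.27 (day 19), and for H2-Aa -0.78 and 0.69. For H2-Eb1 it was -1.20 and 0.50, and for H2-Ab1, also a class II gene, -0.63 and 0.12. It was 0.74 and -0.37 for Il7r, 0.46 and -0.41 for Vpreb3, and 1.11 and -1.40 for Bpgm. It was 1.02 and -0.66 for Ifi27l2a, an interferon-stimulated gene, 0.94 and -0.15 for Mcm3, which takes part in DNA replication, 0.50 and -0.15 for Myb, and 0.23 and -0.35 for Mzb1. With 1 library a group, the difference between the ages was not tested, and the control at day 13, with 286 members, is 1 of the 4 libraries each pair rests on.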

How the results depend on the processing

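No paired analysis was possible because each group holds 1 library. The 11 genes named for genotype kept their direction in all fits run, and so did the 3 named for age. Of the 11, the calls kept were 11 with RLE scaling and without the highest 5% of doublet scores, 10 with no filter and without barcodes of other markers, 8 with a Cd79 sum of 10, 7 with DESeq2 and with 10% mitochondrial UMIs, 6 with no surrogate chain UMI, 5 with 2 Cd79 UMIs, 3 with 1000 genes (Apobec3, Lepr and Snhg12) and 0 with genotype alone. The 3 named for age were called with RLE scaling and with no filter, and none of them under the other settings that keep all 4 libraries. The counts of called genes were less stable. For genotype, in place of 166, they were 53 with DESeq2, 0 with genotype alone, 17 with 1000 genes, 76 with 10% mitochondrial UMIs, 102 with a Cd79 sum of 10, 44 with 2 Cd79 UMIs and 42 with no surrogate chain UMI, but 175 with RLE scaling, 203 with no filter and 249 (198 higher, 51 lower) without barcodes of other markers. For age, in place of 110, they were 23 with DESeq2, 178 with no filter, 0 with age alone, 62 without the highest 5% of doublet scores, 0 with 1000 genes, 23 with 10% mitochondrial UMIs, 25 with a Cd79 sum of 10, 14 with 2 Cd79 UMIs, 12 with no surrogate chain UMI and 27 without barcodes of other markers. Leaving out 1 library gave 0 to 1076 genes for genotype and 0 to 615 for age. These fits had 1 factor, and a lone library was assumed to vary like the pair. Several settings keep fewer barcodes, and beyond that the cause was not tested. The share of members, mutant over control, was 2.21 at day 13 and 3.33 with 1000 genes, and 0.436 at day 19, 0.334 with 1000 genes and 0.394 with a Cd79 sum of 10. Removal by the automatic doublet threshold was not run, as it marked 0% and 0.0138% of barcodes in 2 libraries. Depth limits the control at day 13 most, with 788148 member UMIs, and genes under about 4 CPM there had 3 counts or fewer.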

Other observations

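Genes under 50 CPM at 1 or both ages in the higher genotype were left out of naming, and some of them, chosen here after their values were seen, had large genotype differences in members. Trim12a, a gene of the tripartite motif family on chromosome 7, was at 40.6 and 39.3 CPM in control members at days 13 and 19 and at 3.02 and 0.207 CPM in mutant members (edgeR adjusted p = 1.4e-07). Its relative Trim12c, also on chromosome 7, was at 20.3 and 24.4 CPM in control members and at 2.59 and 1.87 CPM in mutant members (edgeR adjusted p = 1.2e-05), and near-identical reads may be divided between the pair. Col5a3, a collagen gene, was at 46.9 and 60.4 CPM in control members and at 5.61 and 10.6 CPM in mutant members (edgeR adjusted p = 3.4e-06). Clec2d, a ligand of natural killer cell receptors, was at 46.9 and 39.8 CPM in control members and at 14.7 and 22.0 CPM in mutant members (edgeR adjusted p = 0.036). The strain of each library is not given, and strain and genotype cannot be told apart.

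Of 10775 genes tested, 46 were called for genotype with members no lower than other barcodes. Of these, 8 lie on chromosome 4 (656 genes tested there), Lepr, Snhg12 and Epha2 among them. A further 6 lie on chromosome 7 (786 tested), which holds Acan, and 2 on chromosome 11 (889 tested), which holds Sox9. Chromosomes 6, 15 and 16 hold 4 each (514, 447 and 352 tested), with the lambda genes on chromosome 16. Chromosome 19 holds 3 (387 tested). No test was made of these counts.

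Besides the light chains and class II genes, Ly6d, Zfp296 and Gadd45b were higher in members than in B barcodes with surrogate chain in each library, and Lef1, Cdk6 and Phgdh were lower. Ly6d, a surface marker of B-lineage commitment, was at 646 to 1138 CPM in members and 76.8 to 210 CPM with surrogate chain. Lef1, a transcription factor of early precursors, was at 50.8 to 75.4 CPM and 187 to 346 CPM. As the rule divides the barcodes, this is a description with no test.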
